A study of Capra hircus with 6 samples.

Results

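Anti-sense lncRNAs are long transcripts without coding potential that are read from the DNA strand opposite a gene. Some are known to act on the gene they lie across, by recruiting chromatin factors, by interfering with its transcription or by pairing with its RNA, and others have no known role. Fetal skin is a mixture of cells, in which pigment is made by melanocytes that lie among the keratinocytes of the epidermis and hair follicles, above a dermis of fibroblasts and vessels. An anti-sense transcript measured in whole skin can therefore come from any of these cells.

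The members described here were the transcripts that the deposited lncRNA table calls anti-sense, 119 of 1336 lncRNA transcripts (8.91%), beside 218 intronic lncRNAs and 999 lincRNAs, which lie between genes. They were measured in skin of goat fetuses (Capra hircus) on day 100 of gestation, in 6 RNA-seq libraries. The libraries dark 1, dark 2 and dark 3 came from the Youzhou dark goat, whose skin is hyperpigmented under a mostly white coat, and white 4, white 5 and white 6 from the Yudong white goat, whose skin colour the labels call normal. No fetus was treated, all were of the same gestational day, and their sex is not given in the sources used here. Each colour was sampled from a single breed, so skin colour and breed cannot be told apart. The study collected skin from the back and the belly, and the labels do not say which site a library holds. Ribosomal RNA was depleted and the libraries kept strand, which separates an anti-sense transcript from the gene opposite it. Values are FPKM, fragments per kilobase of transcript scaled to the mapped fragments of the library, which allows levels to be compared between transcripts of different length.

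The 6 libraries held the transcripts of skin, and the levels of marker genes differed between them. KRT14, a keratin of basal keratinocytes, lay between 199.8 and 462 FPKM, and DCN, a proteoglycan of dermal fibroblasts, between 1044 and 1169 FPKM. COL1A2 and COL3A1, collagens that fibroblasts make in bulk, were listed at 0 in all 6 libraries, so a listed 0 in these tables need not mean that a transcript was absent. The summed FPKM of 7 matched melanocyte genes (of 16 on the list) ran from 79.5 to 98.8 in dark skin and from 54.5 to 73.8 in white skin. EDNRB, an endothelin receptor that endothelium also carries, made up 20.2 to 53.8 FPKM of these sums. Without it the other 6 genes summed to 67.3, 51.3 and 45.0 in dark 1, dark 2 and dark 3 and to 29.2, 37.0 and 47.1 in white 4, white 5 and white 6, so these sums overlapped between the breeds. All 7 melanocyte transcripts had a positive fitted difference, that is higher in dark skin. DCT, an enzyme of melanin synthesis, ran from 4.31 to 18.4 FPKM in dark and from 0.941 to 1.18 FPKM in white skin, and SLC45A2, a melanosome transporter, from 2.42 to 5.92 FPKM and from 1.11 to 2.17 FPKM, both without overlap. MLANA, MITF, OCA2, SLC24A5 and EDNRB overlapped between the breeds. MLANA was highest in white 6, at 15.1 FPKM against 8.54 to 12.5 FPKM in dark skin. For 4 erythroid genes (of 9) the dark libraries summed to between 1.98 and 4.16 and the white libraries to between 7.31 and 15.5. ALAS2 made up most of these sums, at 1.56 to 3.82 FPKM in dark and 6.55 to 14.5 FPKM in white skin. HEMGN also did not overlap between the breeds, while EPB42 and AHSP did. For 4 endothelial genes (of 6) the sums were 57.2 to 72.4 in dark skin and 80.6 to 110.5 in white skin. Skeletal muscle genes (MYL1 and CKM, of 12) summed to 532 in white 4 and 181 in white 5, against 53.6 or less in the other libraries. Basal keratinocyte genes (4 of 12) summed to 545, 596 and 958 in dark 1, dark 2 and dark 3 and to 667, 822 and 630 in white 4, white 5 and white 6, and the 4 fibroblast genes above 0 (of 10 on the list) to 2779 to 3435 in dark skin and 2399 to 3274 in white skin. None of the marker transcripts tested, which leave out COL1A2 and COL3A1, had an adjusted p under 0.05 between the breeds (limma over 23090 mRNA transcripts, of which 0.00866% were called), and the part of these marker levels in the results below was not tested. In whole skin, fewer cells of a type and less RNA per cell cannot be told apart.

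The anti-sense lncRNAs were spread over the genome. They lay on 28 of the 29 chromosomes that carried any lncRNA, with 4 further members on unplaced scaffolds, and chromosome 5 held the most with 10 of its 77 lncRNAs. On the plus strand were 53 members and on the minus strand 66, which is 44.5% on the plus strand against 48.1% of the other lncRNAs. The deposited table gives a chromosome and a strand for each lncRNA but no start, end or gene name. The study's supplementary lists name lncRNAs by locus, and 73 members were matched to a locus through the genes correlated with it, an inference from expression that left 46 members without a match. Of these matches 36 came from a second, looser step. They include TCONS_00173983, TCONS_00077461, TCONS_00186169, TCONS_00195713, TCONS_00130749, TCONS_00152046, TCONS_00202478 and TCONS_00040217, so their neighbours are less certain. All 73 matched members had at least 1 gene listed within 10 kb, as had all 148 matched intronic lncRNAs, against 225 of 563 matched lincRNAs (40.0%). The types are defined by their position relative to genes, so this contrast was fixed in advance. The lists do not say which of these genes lies opposite the lncRNA, so the genes named below are neighbours within 10 kb. A single neighbour was listed for 40 members and several for the other 33, with 128 genes in all, none of them on the marker lists.

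Most members were present at a low level. The mean FPKM over the 6 libraries ran from 0.115 to 15.9, with 60 members at 1 FPKM or more, 26 at 2 or more and 8 at 5 or more, while 19 lay under 0.5. The 10 most abundant members held 41.1% of the summed anti-sense FPKM. Each library had a similar middle. The median member stood at 1.05, 1.02 and 0.822 FPKM in dark 1, dark 2 and dark 3, and at 1.04, 1.03 and 1.05 FPKM in white 4, white 5 and white 6. Dark 3 was the low library, with 52 members above 1 FPKM against 60 to 63 in each of the others, and it held the highest value of only 7 members and the lowest of 29. This was not particular to the members. Dark 3 also had the lowest median of intronic lncRNAs, at 1.01 FPKM, and of lincRNAs, at 0.798 FPKM.

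**Figure D1:**
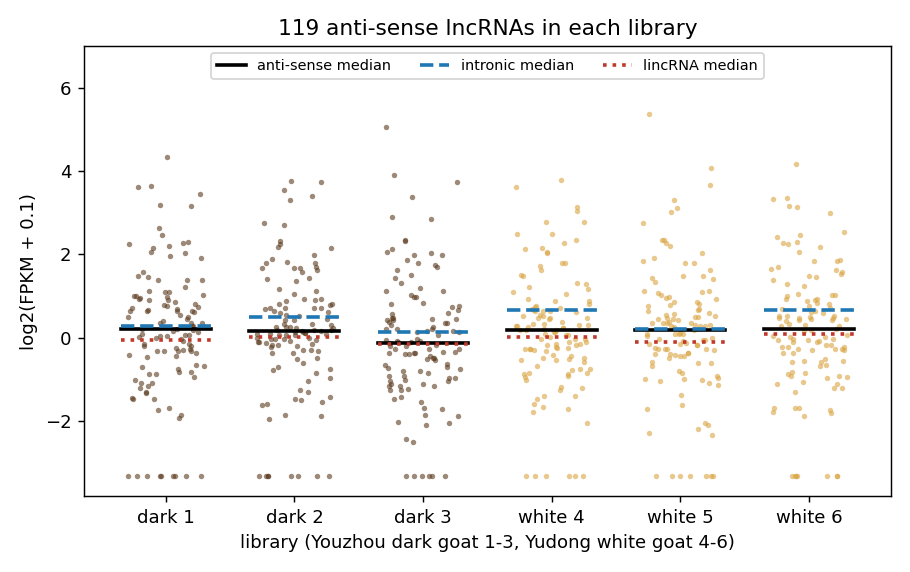
Level of each of the 119 anti-sense lncRNAs as log2(FPKM + 0.1) in the 3 Youzhou dark goat and 3 Yudong white goat libraries, 1 point per transcript, with bars at the median of the anti-sense (solid), intronic (dashed) and lincRNA (dotted) transcripts. The anti-sense median lies between the other medians in each library, lowest in dark 3 at -0.12, and the row of points at the bottom are transcripts at or near 0.

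Anti-sense lncRNAs stood between the other types in level. Within each library, their median log2(FPKM + 0.1) was compared with that of the other types. The difference from intronic lncRNAs was -0.27 ± 0.19 (SD, n = 6 libraries), lower in 6 of 6 (p = 0.031 by an exact 2-sided permutation test that flips signs over libraries, the smallest value possible with 6 of them, and adjusted p = 0.031 over both comparisons). It ran from -0.02 in white 5 to -0.46 in white 4, and with the mean over transcripts in place of the median it was -0.09 and no longer passed the test (exact p = 0.25). The difference from lincRNAs was 0.17 ± 0.086 (SD, n = 6 libraries), higher in 6 of 6 (p = 0.031 by the same exact test, adjusted p = 0.031). It was smallest in dark 3, at 0.04, and largest in white 5, at 0.27. Both tests set the same transcripts against each other in 6 libraries. They measure how the difference repeats between libraries, not the spread between transcripts.

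The most abundant anti-sense lncRNA was TCONS_00173983 on chromosome 5, ranked 20 among all lncRNAs. It had 20.3, 13.4 and 13.3 FPKM in dark 1, dark 2 and dark 3 and 13.7, 16.6 and 18.0 FPKM in white 4, white 5 and white 6. Its values overlapped between the breeds, and its listed neighbours were C5H12orf56 and C5H12orf66. C5H12orf66 itself was measured at 2.14, 2.16 and 2.38 FPKM in dark skin and 1.46, 1.72 and 1.34 FPKM in white skin, so the lncRNA stood above its neighbour in each library.

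TCONS_00063694 on chromosome 16, with HNRNPU (a nuclear RNA-binding protein) among its neighbours, had 9.03, 9.72 and 7.05 FPKM in dark skin and 8.73, 9.79 and 8.80 FPKM in white skin. TCONS_00044848 on chromosome 13, whose listed neighbour TMC2 encodes a subunit of the mechanotransduction channel of inner ear hair cells, had 12.3, 11.7 and 7.38 FPKM in dark skin and 5.51, 12.6 and 5.39 FPKM in white skin. The former was even across libraries and the latter was high in 3 of them (dark 1, dark 2 and white 5), and both overlapped between the breeds. TCONS_00186169 on chromosome 6 lies near MYOZ2, a protein of the muscle Z disc, SYNPO2, an actin-binding protein of muscle, and USP53. It had 8.84, 6.45 and 5.003 FPKM in dark skin and 5.003, 4.97 and 9.98 FPKM in white skin, highest in white 6 and dark 1. Its 3 lowest values fell in dark 3, white 4 and white 5. These libraries had the highest sums of the muscle genes MYL1 and CKM, at 53.6, 532 and 181. The part of muscle content in this pattern was not tested.

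TCONS_00035984 and TCONS_00037105, both on the minus strand of chromosome 12, had no matched locus. TCONS_00035984 had 12.1, 13.1 and 14.9 FPKM in dark skin and 12.2, 7.96 and 10.1 FPKM in white skin. TCONS_00037105 had 6.09, 6.64 and 4.89 FPKM in dark skin and 6.78, 6.61 and 7.83 FPKM in white skin. Each overlapped between the breeds, the first through white 4 and the second through dark 2. The transcript TCONS_00035984 shares its strand and a consecutive number with TCONS_00035983, at a mean of 2.97 FPKM. In all, 9 members stood within 5 transcript numbers of another member on the same strand, in 4 runs. Whether such transcripts share sequence was not tested.

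**Figure D2:**
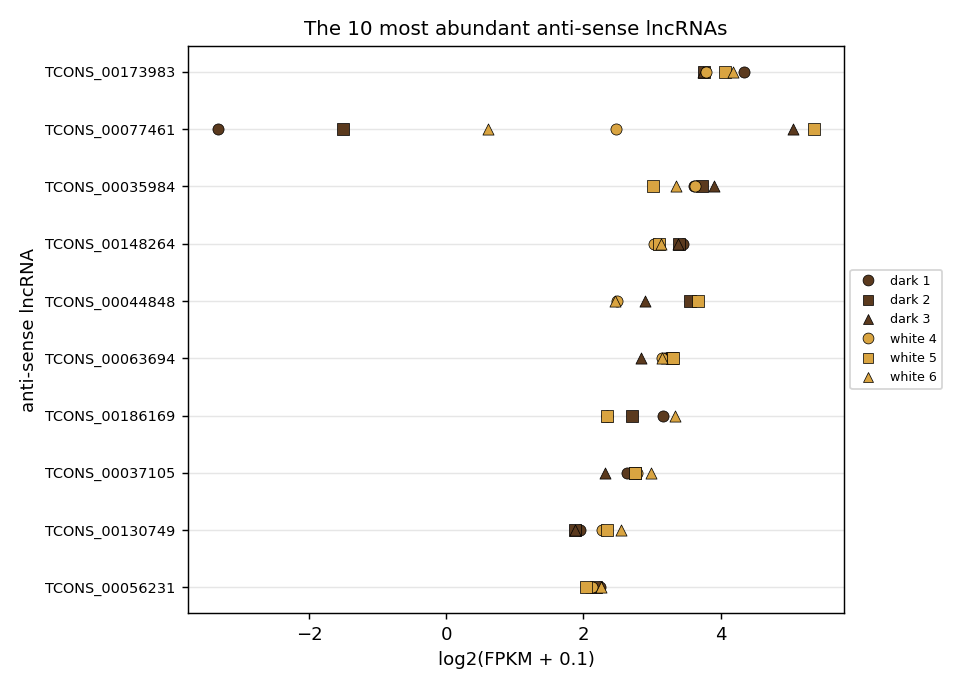
The 10 anti-sense lncRNAs with the highest mean FPKM, most abundant at the top, with log2(FPKM + 0.1) on the horizontal axis and 1 point per library (dark brown for the 3 Youzhou dark goat and light for the 3 Yudong white goat libraries). TCONS_00077461 alone is scattered over the axis, from 0 FPKM in dark 1 to 41.0 FPKM in white 5, while TCONS_00148264 and TCONS_00130749 separate the breeds.

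TCONS_00077461 on chromosome 18, the second of the members by mean level, was patchy. It was listed at 0, 0.254 and 33.1 FPKM in dark 1, dark 2 and dark 3 and at 5.48, 41.0 and 1.42 FPKM in white 4, white 5 and white 6. White 5 alone held 50.4% of its summed FPKM, and dark 3 lay among the white values, so the breeds overlapped. Its only listed neighbour, LOC102191730, was at 0.250 FPKM in dark 3 and listed at 0 in the other libraries. Dark 3 and white 5 were also the libraries with the highest sums of basal keratinocyte genes, at 958 and 822 FPKM, and dark 1 and dark 2 those with the lowest, at 545 and 596 FPKM. Of the 4 genes, KRT14 and PERP were highest in dark 3 and white 5, while TP63 and DSG3 were not. TP63, the master regulator of stratified epithelium, had 37.2 and 41.0 FPKM in dark 1 and dark 2 against 34.5 and 29.4 FPKM in dark 3 and white 5, and DSG3, a desmosome protein, had 28.4 and 27.3 against 24.7 and 23.9 FPKM in the same order. The part of keratinocyte content in this pattern was not tested.

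The dark and white breeds differed little as a whole over the anti-sense lncRNAs. The median level on the log2(FPKM + 0.1) scale was 0.083 ± 0.174 (SD, n = 3 libraries) for dark and 0.192 ± 0.0121 (SD, n = 3 libraries) for white skin, a difference of -0.11 (exact permutation test, 2-sided, p = 0.3, where 3 against 3 libraries cannot go below 0.1). Without dark 3 the difference was -0.01. Over all 6 libraries the same difference was -0.20 for intronic lncRNAs and -0.07 for lincRNAs (exact permutation p = 0.3 and 0.4). Members held 6.72%, 6.68% and 6.51% of the summed lncRNA FPKM in dark 1 to dark 3 and 6.30%, 7.25% and 6.90% in white 4 to white 6 (exact permutation p = 0.6). These shares overlapped, and the direction of their difference, -0.18 percentage points, turned to 0.03 without white 5.

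Transcript by transcript, 0 anti-sense lncRNAs passed an adjusted p of 0.05 (limma on log2(FPKM + 0.1) over 1332 lncRNA transcripts, of which 0% were called), and 8 members (6.72%) had an unadjusted p under 0.05, against 8.78% of all lncRNAs tested. Over the mRNA table the same unadjusted threshold was passed by 8.28% of transcripts. All 119 members passed the filter of a mean FPKM of at least 0.1. The fitted difference was positive, that is higher in dark skin, for 63 members and negative for 56. It was under 0.5 in size on the log2 scale for 86 members and over 1 for 10, with a median of 0.04 against -0.11 over all lncRNAs, -0.32 for intronic lncRNAs and -0.06 for lincRNAs. The median of the members ran from -0.04 to 0.11 when single libraries were left out, so its direction was not settled.

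The 3 dark values lay all above or all below the 3 white values for 18 members (15.1%), against 15.9% of all lncRNAs. Of these, 5 (4.20%, against 6.08% of all lncRNAs) were higher in dark skin and 13 (10.9%, against 9.83%) lower. With each library centred on its lncRNA median, 23 members did not overlap, where 18.5% of all lncRNAs did not, and the split became 13 higher and 10 lower, so the direction of the split depended on the scaling. Centring on the mRNA median gave 7 higher and 12 lower (14.4% of all lncRNAs without overlap). Without dark 3 it was 18 higher and 18 lower (29.7% of all lncRNAs without overlap), and without white 6 it was 15 and 14 (24.7%). Without dark 1 it was 7 higher and 20 lower (23.6% of all lncRNAs without overlap), without dark 2 it was 8 and 21 (27.3%), without white 4 it was 9 and 21 (22.6%), and without white 5 it was 8 and 18 (30.3%). The members named next are therefore given by their values, and none of them passed the adjusted test.

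Among the members with lower values in dark skin, TCONS_00195713 on chromosome 7 had the smallest p. It had 1.93, 0.784 and 1.03 FPKM in dark skin and 2.99, 3.39 and 3.14 FPKM in white skin. Dark 1 lay nearest to white skin, and the white values were close together, at 3.17 ± 0.201 (SD, n = 3) against 1.25 ± 0.603 (SD, n = 3). The fitted difference was -1.37 on the log2(FPKM + 0.1) scale (standard error 0.31, adjusted p = 0.257 from limma), and it ran from -1.71 to -1.11 when single libraries were left out. Its neighbours are FBXL12, a substrate-binding subunit of a ubiquitin ligase, and UBL5, a ubiquitin-like protein. FBXL12 had 9.50, 7.21 and 9.29 FPKM in dark skin and 9.02, 7.18 and 7.56 FPKM in white skin, and UBL5 had 155, 159 and 186 FPKM in dark skin and 165, 195 and 141 FPKM in white skin, so both neighbours overlapped between the breeds.

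TCONS_00130749 on chromosome 25, near RAB26 (a small GTPase of vesicle transport) and TRAF7 (a ubiquitin ligase), was the most abundant member lower in dark skin without overlap. It had 3.77, 3.58 and 3.57 FPKM in dark skin and 4.75, 4.99 and 5.74 FPKM in white skin. The dark values lay close together, with the lowest white value 0.973 FPKM above the highest of them, and the fitted difference was -0.49 (standard error 0.15, adjusted p = 0.460 from limma).

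TCONS_00152046 on chromosome 3 has a single listed neighbour, CYR61, a secreted matrix-associated protein of fibroblasts and vessels. It had 0.371, 0.225 and 0.367 FPKM in dark skin and 1.14, 0.639 and 0.564 FPKM in white skin. White 4, the library with the highest muscle and endothelial sums, was the highest, and the fitted difference was -1.03 (standard error 0.47, adjusted p = 0.530 from limma). TCONS_00152982 on the same chromosome, without a matched locus, had 0.269, 0.245 and 0.540 FPKM in dark skin and 0.746, 0.928 and 0.729 FPKM in white skin. Here dark 3 lay nearest to white skin, and the fitted difference was -1.05 (standard error 0.44, adjusted p = 0.530 from limma).

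TCONS_00123238 on chromosome 23, with 3 neighbours known only by LOC numbers, had 1.46, 1.15 and 1.004 FPKM in dark skin and 1.66, 1.72 and 1.80 FPKM in white skin. TCONS_00202478 on chromosome 8, near NINJ1 (a membrane protein of cell rupture) and C8H9orf89, had 1.01, 1.13 and 0.843 FPKM in dark skin and 1.58, 1.27 and 1.597 FPKM in white skin. TCONS_00119007 on chromosome 22, near THOC7, a subunit of the complex that couples transcription to mRNA export, had 1.04, 0.945 and 0.609 FPKM in dark skin and 1.12, 1.49 and 1.24 FPKM in white skin. In each of these 3 members the nearest dark and white values lay within 0.196 FPKM of each other, and the adjusted p from limma was 0.530, 0.530 and 0.559 in the same order.

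TCONS_00172241 on chromosome 5 had the lowest level of the members named in this direction. It was listed at 0, 0 and 0.145 FPKM in dark skin and at 2.03, 0.476 and 0.171 FPKM in white skin. White 4 alone held 71.9% of its summed FPKM, and dark 3 and white 6 lay close together. No fold is given, since the levels of dark skin lie at the lower end of the table.

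Of the 5 members higher in dark skin without overlap, TCONS_00148264 on chromosome 29 was the most abundant and the most even. It stood at 10.9, 10.4 and 10.3 FPKM in dark skin and 8.11, 8.53 and 8.66 FPKM in white skin, or 10.5 ± 0.285 (SD, n = 3) against 8.43 ± 0.288 (SD, n = 3). All 3 dark libraries lay above all 3 white ones by more than the range within either breed. The fitted difference was 0.32 (standard error 0.14, adjusted p = 0.530 from limma), and it was not matched to a locus.

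TCONS_00040217 on chromosome 13 has VIM, the intermediate filament protein of fibroblasts, endothelium and melanocytes, as its single listed neighbour. It had 1.31, 1.54 and 1.06 FPKM in dark skin and 0.807, 0.412 and 0.762 FPKM in white skin, lowest in white 5. The fitted difference was 0.92 (standard error 0.34, adjusted p = 0.530 from limma). TCONS_00115662 on chromosome 22 lies near RBM15B (an RNA-binding protein of the m6A methyltransferase complex), MANF (a secreted factor of the endoplasmic reticulum stress response) and DOCK3. It had 1.80, 1.43 and 1.18 FPKM in dark skin and 0.732, 0.854 and 0.876 FPKM in white skin, with a fitted difference of 0.75 and a standard error of 0.27 (limma, adjusted p = 0.517).

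TCONS_00178841 on chromosome 5 is the member next to HOXC13, a homeobox factor that drives hair keratin genes in the follicle. It had 0.798, 1.09 and 1.01 FPKM in dark skin and 0.652, 0.792 and 0.674 FPKM in white skin. Dark 1 and white 5 were nearly equal, and the fitted difference was 0.40 with a standard error of 0.30 (limma, unadjusted p = 0.232, adjusted p = 0.645). TCONS_00002674, on the minus strand of an unplaced scaffold, had 1.47, 1.80 and 1.39 FPKM in dark skin and 0.834, 0.958 and 0.861 FPKM in white skin, with a fitted difference of 0.74 and a standard error of 0.24 (limma, adjusted p = 0.460). VIM and HOXC13, like CYR61 and HNRNPU, had no matched mRNA transcript and were not analysed here.

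**Figure D3:**
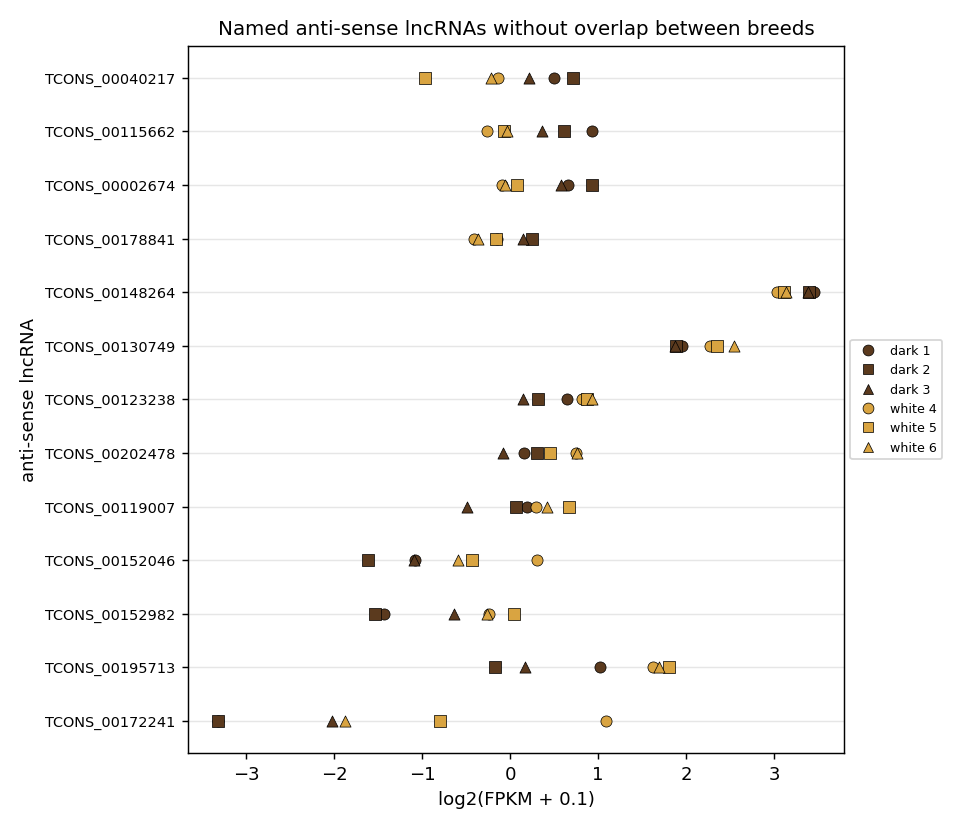
Of the anti-sense lncRNAs whose 3 dark and 3 white values do not overlap, all 5 that were higher in dark skin and the 8 with the smallest p among those that were lower, 13 in all, ordered by the fitted difference from higher to lower in dark skin, with log2(FPKM + 0.1) on the horizontal axis and 1 point per library. On this axis the gap between dark (brown) and white (light) points is 0.01 for TCONS_00178841, 0.10 for TCONS_00119007 and 0.61 for TCONS_00195713, and none of the 13 passed an adjusted p of 0.05.

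The spread of the anti-sense lncRNAs between libraries depended on their level. The SD of log2(FPKM + 0.1) over the 6 libraries had a median of 0.43 for anti-sense, 0.43 for intronic and 0.61 for lincRNA transcripts. Among transcripts with a mean of at least 1 FPKM the medians were 0.31 for 60 anti-sense, 0.38 for 137 intronic and 0.39 for 428 lincRNA transcripts. Between 0.5 and 1 FPKM they were 0.56, 0.47 and 0.66 in the same order, so that here the anti-sense median lay above the intronic one, and under 0.5 FPKM they were 1.13, 1.21 and 1.19. All 6 values lay within a 2-fold range for 42 members (35.3%), against 30.7% of intronic lncRNAs and 22.3% of lincRNAs. Since lincRNAs were lower in level and low values scatter more, these medians over all levels are not matched for level. No test was run on them.

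**Figure D4:**
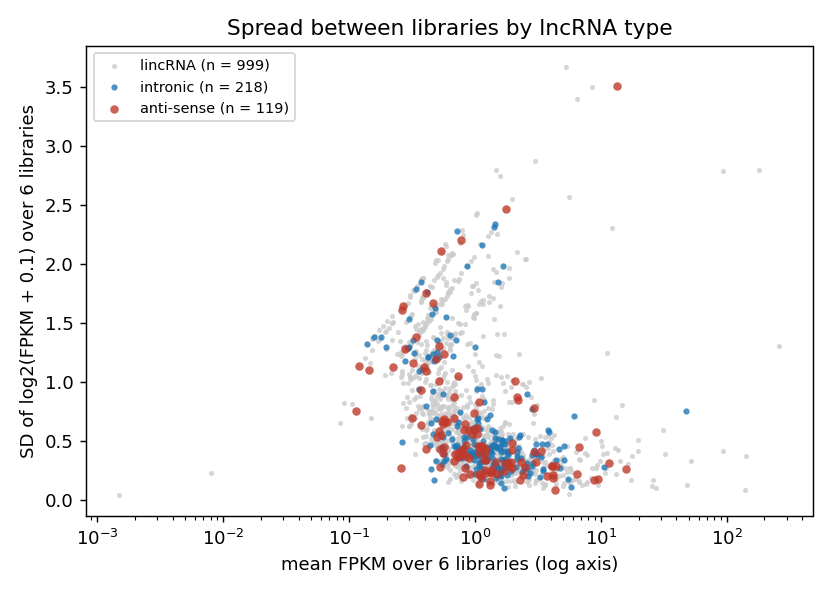
SD of log2(FPKM + 0.1) over the 6 libraries against the mean FPKM (log axis) for 119 anti-sense, 218 intronic and 999 lincRNA transcripts, 1 point per transcript. Spread narrows as the level rises, with a median SD of 1.13 for anti-sense lncRNAs under 0.5 FPKM and 0.31 for those of at least 1 FPKM, and TCONS_00077461 stands at the top right.

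The most even member was TCONS_00056231 on chromosome 15, near ZDHHC5 (a palmitoyl transferase), MED19 (a subunit of the Mediator complex) and TMX2 (a thioredoxin-related membrane protein). It had 4.65, 4.44 and 4.24 FPKM in dark skin and 4.27, 4.004 and 4.67 FPKM in white skin, a coefficient of variation of 5.90%. TMX2 was as even, at 22.5, 25.01 and 24.6 FPKM in dark skin and 24.3, 24.7 and 25.4 FPKM in white skin. The other members with a small spread were TCONS_00175983, TCONS_00141178, TCONS_00196198 and TCONS_00141574, with coefficients of variation of 9.14%, 9.72%, 12.2% and 11.8% in that order.

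Among these even members, TCONS_00141178, next to ANK1 (ankyrin of the red cell and muscle membrane skeleton), had 0.955, 0.988 and 1.06 FPKM in dark skin and 1.14, 1.14 and 1.24 FPKM in white skin. TCONS_00141574, next to SPCS3 (a subunit of the signal peptidase), had 2.04, 1.98 and 2.18 FPKM in dark skin and 2.37, 2.67 and 2.50 FPKM in white skin. Both belong to the 13 members that were lower in dark skin without overlap, with fitted differences of -0.21 (standard error 0.24) and -0.27 (standard error 0.17) on the log2(FPKM + 0.1) scale.

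At the other end stood TCONS_00077461, TCONS_00115194, TCONS_00117671, TCONS_00097867 and TCONS_00195713, the 5 members with the largest SD among those of at least 1 FPKM. TCONS_00115194 on chromosome 22 had 3.41 and 2.60 FPKM in dark 2 and dark 3 and 2.73 and 1.88 FPKM in white 4 and white 5, but only 3.0e-04 FPKM in dark 1 and 4.3e-04 FPKM in white 6. The low values fell in 1 library of each breed, and such values need not mean that the transcript was absent. TCONS_00097867 on chromosome 2, next to HNMT, the enzyme that inactivates histamine, had 3.65, 3.38 and 0.659 FPKM in dark skin and 2.36, 1.72 and 1.27 FPKM in white skin. HNMT itself had 12.9, 8.76 and 9.37 FPKM in dark skin and 11.7, 12.4 and 8.79 FPKM in white skin. TCONS_00117671 on chromosome 22 was highest in dark 1 at 4.71 FPKM and lay between 0.787 and 2.98 FPKM elsewhere.

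A value of 0 was listed in at least 1 library for 17 members (14.3%), against 15.1% of intronic lncRNAs and 23.6% of lincRNAs. Of the 17, 6 were at 0 in 1 library, 5 in 2, 3 in 3 and 3 in 4, and 7 had over 50% of their summed FPKM in a single library. The highest values of these 17 fell in all 6 libraries. TCONS_00194864 on chromosome 7, next to CAST (calpastatin, the inhibitor of calpain proteases), was listed at 0 in the 3 dark libraries and in white 4, and at 1.27 and 1.94 FPKM in white 5 and white 6. The breeds overlapped at 0. TCONS_00002362, on a scaffold, was at 1.76, 0.893 and 1.98 FPKM in dark 2, white 5 and white 6 and listed at 0 in the other libraries.

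Other members with a listed 0 lie next to genes of various roles. TCONS_00053772 lies next to MMP8, the collagenase of neutrophils, and was at 0.526, 0 and 0.245 FPKM in dark skin and 0.741, 0 and 0.539 FPKM in white skin. MMP8 itself was at 0.0306 FPKM in dark 3 and 0.0336 FPKM in white 4 and listed at 0 in the other 4 libraries. TCONS_00041746 lies next to ENKUR, a protein of sperm and cilia, and was at 0.641, 0 and 0.615 FPKM in dark skin and 0, 1.21 and 0 FPKM in white skin. TCONS_00132292, near KAT8 (a histone acetyltransferase) and PRSS8 (prostasin, a protease of epithelia), was at 0, 0.498 and 0.326 FPKM in dark skin and 0.339, 0 and 0.185 FPKM in white skin. All 3 overlapped between the breeds.

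TCONS_00054165 next to MS4A5, TCONS_00035038 next to ATP8A2 (a phospholipid flippase), TCONS_00047488 next to LOC102190434, and TCONS_00083605 near SLC25A35 (a mitochondrial carrier) and ARHGEF15 also had a listed 0. Their highest values were 0.938, 0.827, 0.968 and 0.875 FPKM in that order. TCONS_00047488 and TCONS_00083605 were listed at the same 0.709 FPKM in dark 1 and the same 0.875 FPKM in white 4, so low values in these tables fall on shared steps. The remaining members with a listed 0, TCONS_00050984, TCONS_00094123, TCONS_00097466, TCONS_00035981, TCONS_00179804 and TCONS_00061055, had no matched locus and means between 0.115 and 0.413 FPKM.

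For 33 matched members a neighbouring gene had a matched mRNA transcript, which gave 37 pairs of an anti-sense lncRNA and a gene within 10 kb. The gene stood above the lncRNA in 27 of the 37 pairs, with a median ratio of 4.03 in mean FPKM. Gene means ran from 0.0038 to 422 FPKM, with 29 genes at 1 FPKM or more and 4 under 0.1. No test of the pairs as a group was run. Pearson's r over the 6 libraries was above 0 in 18 pairs (48.6%) and below 0 in 19, with a median of -0.0075. When every one of these lncRNAs was set against every one of these genes, 45.8% lay above 0 and the median was -0.054. Over the pairs r ran from -0.851 to 0.757, and no pair reached 0.9 in size. After subtraction of each breed mean, r was above 0 in 20 pairs, with a median of 0.14. It then reached 0.9 in size in 3 pairs, named here after their values were seen. These were TCONS_00083605 with SLC25A35 at 0.980, TCONS_00174068 with IL23A (a subunit of the cytokine interleukin 23) at 0.966, and TCONS_00174068 with PAN2 (a deadenylase subunit) at -0.945. Over all 6 libraries their r was 0.717, 0.701 and -0.123, and no test was run on the values within breeds. The share of all pairings that reach 0.9 within breeds was not computed, so the count of 3 has no background.

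**Figure D5:**
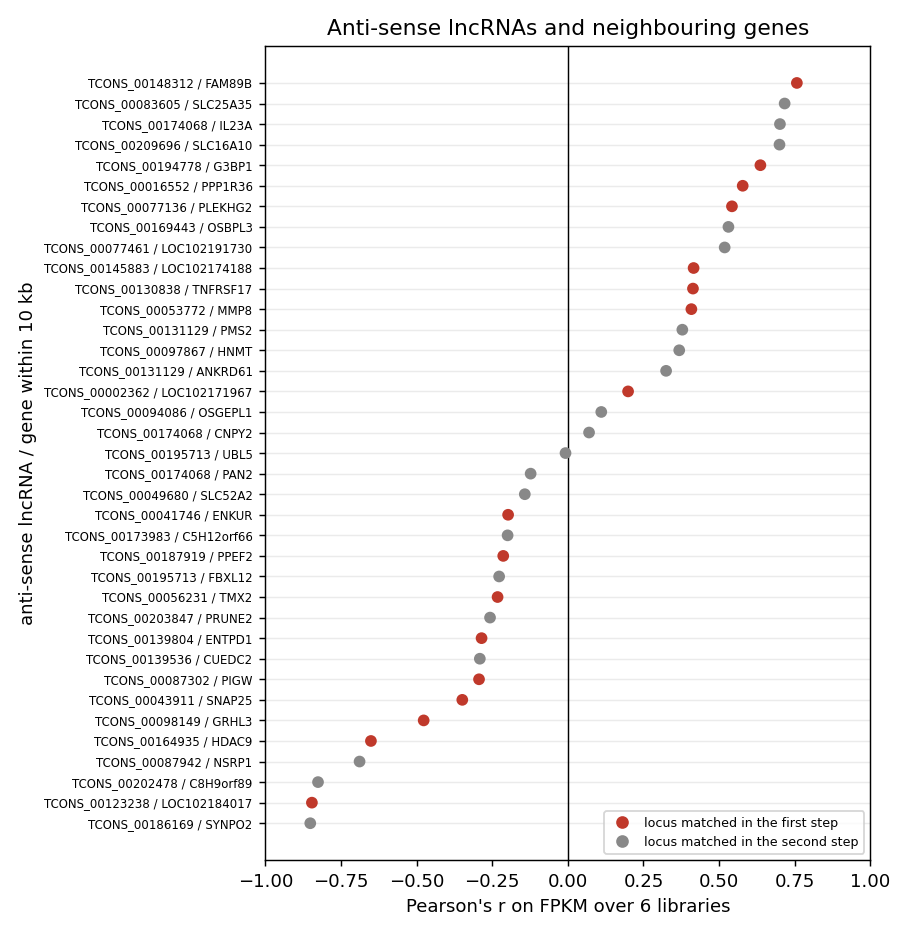
Pearson's r on FPKM over the 6 libraries for the 37 pairs of an anti-sense lncRNA and a gene listed within 10 kb, sorted from lowest to highest, with red points for loci matched in the first step and grey for those matched in the second. Points lie on both sides of 0, with 18 above and 19 below, from -0.851 for TCONS_00186169 with SYNPO2 to 0.757 for TCONS_00148312 with FAM89B.

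No pair passed an adjusted p of 0.05 over the 37 pairs by the exact permutation test, where the smallest adjusted p was 0.591, and 2 pairs had an unadjusted exact p under 0.05. The lowest r belonged to TCONS_00186169 and SYNPO2. SYNPO2 had 3.32, 6.98 and 8.41 FPKM in dark skin and 7.89, 6.80 and 5.06 FPKM in white skin, so it was lowest in dark 1 and white 6, the libraries where the lncRNA was highest. Here r was -0.851 (p = 0.0417 by exact 2-sided permutation) and rho -0.543 (p = 0.297 by the same exact test). With single libraries left out, r stayed between -0.931 and -0.826. Leaving out together the 2 libraries whose lncRNA value lay farthest from its median gave an r of -0.455, so the size of the relation rests on them. Within breeds, after subtraction of each breed mean, r was -0.853. The part of muscle content in this pair was not tested. The highest r, of TCONS_00148312 and FAM89B, was 0.757 (p = 0.0667 by the exact permutation test) with a rho of 0.829 (exact p = 0.0583). It was 0.489 without dark 2 and 0.171 without the 2 libraries with the most extreme lncRNA values, so its size rests on those libraries.

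In the 2 pairs with the next lowest r, both transcripts separated the breeds. LOC102184017 had 478, 460 and 542 FPKM in dark skin and 312, 411 and 326 FPKM in white skin, opposite to TCONS_00123238, and their r was -0.846 (exact p = 0.0472) with a rho of -0.771 (exact p = 0.103). Leaving out the 2 libraries with the most extreme lncRNA values gave -0.733, and subtraction of each breed mean gave -0.329. C8H9orf89 had 14.4, 13.9 and 14.0 FPKM in dark skin and 12.6, 12.9 and 13.1 FPKM in white skin, opposite to TCONS_00202478, and their r was -0.826 (exact p = 0.0556) with a rho of -0.771 (exact p = 0.103). Here the same steps gave -0.732 and -0.014. In these pairs a relation between the transcripts and a difference between the breeds cannot be told apart.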

How the data were processed

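The authors aligned clean reads to the goat genome with TopHat2 and Bowtie2, assembled them, retained as lncRNAs those with several exons and no coding potential, and calculated FPKM with Cuffdiff. Per the submitters' processing notes the versions were Bowtie2 2.0.6, TopHat2 2.0.9, Cufflinks 2.1.1 and Cuffdiff 2.1.1 and 2.2.2. They deposited FPKM per transcript and library, without counts, so depth per value is unknown and counting intervals are left out. The authors' mean FPKM column was not used. The type column of the deposited table chose the members. The study's text gives the sizes of the anti-sense and intronic types in either order, and the table was followed. None of the 6 lncRNAs that the study measured by quantitative PCR is anti-sense, so the rule left none out. Fetuses came from 3 ewes per breed, and each library was treated as 1 replicate.

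Breeds were compared on log2(FPKM + 0.1) by the moderated linear model of limma 3.58.1 (R 4.3.3, trend option), 2-sided, for transcripts whose mean reached 0.1 FPKM, with Benjamini-Hochberg adjustment over all lncRNA (or all mRNA) transcripts tested. On this scale the change of low transcripts is understated. The step was tested on simulated data. Other values came from Python 3.11.15, using scipy 1.17.1, pandas 2.3.3 and numpy 2.4.6. Members, gene lists and tests were chosen with earlier results of these data known.

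Gene names came from a RefSeq table (ARS1.2, names only), which matched 9497 of 27947 mRNA transcripts. Loci in the study's lists were matched to transcripts by the genes correlated with each locus at an absolute r of at least 0.95. The first step needed at least 5 genes, 80% of them past that value and a lead of 3 genes, and of 222 such matches that could be checked 220 lay on the chromosome of a neighbour. In the second step, added after the data were seen, candidates had to lie on the chromosome and strand of the nearest matched loci, with 50% of genes past the value. In place of close transcript numbers, agreement with the chromosome and strand of adjacent matched loci was asked for. The steps gave 37 and 36 members. The copy of the list read here is shortened, and no set test was run on it.

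Named members were the 10 most abundant, up to 8 in each direction with the smallest p among those without overlap between the breeds, the 5 with the smallest and the 5 with the largest SD at a mean of at least 1 FPKM, those listed at 0 or with over 50% of their FPKM in 1 library, and any that passed the adjusted test or neighboured a marker gene, of which there was none. The pair of TCONS_00148312 and FAM89B was named after its value was seen. Alternatives were pseudocounts of 0.01 and 1, other filters, centring, a fit without the trend, quantile normalization, a joint fit of both tables and each library left out.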

Additional observations from a re-analysis of the deposited data

How the results depend on the processing

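The count of 0 anti-sense lncRNAs past an adjusted p of 0.05 held under all 15 alternatives, although 2 lncRNAs of other types passed in each of the fits with centring on the lncRNA median, quantile normalization, no trend or without dark 3. At an unadjusted p under 0.05 stood 2 to 12 members, beside 5.59% to 11.5% of all lncRNAs, and the smallest adjusted p of a member lay between 0.102 and 0.558. The 18 members without overlap between the breeds became 10 with a mean FPKM of at least 1, where 60 members remain, against 17.4% of all lncRNAs, and 26 to 36 with single libraries left out, against 22.6% to 30.3% of all lncRNAs, where 2 libraries are set against 3. Against intronic lncRNAs, the difference of median log2 level ran from -0.32 to -0.23 with single libraries left out, and against lincRNAs from 0.15 to 0.19, in both cases with an exact p of 0.0625, the smallest that 5 libraries allow. With the mean over transcripts the first was -0.0903 (exact p = 0.25), and the cause was not tested. The difference in median level between the breeds ran from -0.17 to -0.01, and that in the share of lncRNA FPKM from -0.44 percentage points to 0.032, reversed without white 5. The median SD of the members was 0.47 with a pseudocount of 0.01, 0.23 with a pseudocount of 1 and 0.40 within breeds, since a larger pseudocount narrows the log scale, and 0.43 to 0.45 with single libraries left out. For the 18 members without overlap, the fitted difference kept its direction and its side of the threshold in all 262 alternative fits. The direction was largely fixed by the choice of members without overlap, so this is no separate support for them. The first matching step alone gave 17 pairs with a neighbouring gene, 8 with r above 0. No paired analysis was possible because the breeds carry the replicate numbers 1 to 3 and 4 to 6, which they do not share. There were 3 libraries per breed, and levels under about 1 FPKM rest on an unknown number of fragments.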
